A study of Mus musculus with 4 samples.

Results

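The genes described here encode the subunits of the mitochondrial respiratory chain and of ATP synthase. They were chosen by name: every non-control probe whose gene name in the array files begins with Nduf, Uqcr, Atp5, Cox4i, Cox5, Cox6, Cox7 or Cox8, or is Sdha, Sdhb, Sdhc or Sdhd. This rule uses no measured value. It took 111 of 41174 probes, which carry 81 gene names, and 79 of these genes passed the filter on low signal and were tested among 19900 genes. Of the 79, 35 belong to complex I, 4 to complex II, 7 to complex III, 15 to complex IV and 15 to complex V, and 3 are assembly factors or related proteins that share the prefix (Ndufaf1, Cox7a2l and Atp5s). Ndufa4 was counted with complex IV, where the protein is now placed. Another 17 probes stand in the files under older names of such genes (Uqcr10 as 1110020P15Rik, Ndufv3 as 1500032D16Rik) and are not members.

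The study asked, per its title, how TGFb drives the conversion of CD4 T cells to regulatory T cells (Treg) and how IL6 inhibits it. Mouse lymph node CD4 T cells were cultured for 4 days on plates coated with anti-CD3 at 1 ug/ml, and every group received IL2 at 100 units/ml. The 4 conditions were IL2 alone (3 arrays), TGFb at 4 ng/ml (3 arrays), TGFb at 4 ng/ml with IL6 at 25 ng/ml (4 arrays) and IL6 at 25 ng/ml (3 arrays), each with 3 days of cytokine. Each of the 13 two-colour arrays paired Treg with T-effector RNA of 1 condition, and the dyes were exchanged on some arrays. The way in which the 2 sample types were separated, and the strain and age of the mice, are not given in the sources used here. The labels do not call the arrays of a condition separate cultures or animals, so the p-values cover only array-to-array spread, which may be technical.

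The respiratory chain passes electrons from NADH (complex I) and succinate (complex II) through ubiquinone, complex III and cytochrome c to complex IV, which reduces oxygen. Complexes I, III and IV pump protons across the inner mitochondrial membrane, and complex V (ATP synthase) uses the gradient to make ATP. Newly activated T cells are known for a strong rise of glycolysis, whereas regulatory T cells are known to rely more on mitochondrial oxidation. Only nuclear genes fall under the naming rule, so the subunits that mitochondrial DNA encodes are not described.

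The members were bright. The tested probe of 76 of the 79 genes was well above background in all 26 channels, and the median member signal lay between 11.94 and 12.48 (log2, after normalization) over the 13 Treg channels and between 11.96 and 12.39 over the T-effector channels. Of the tissue-restricted isoforms, Cox8b and Cox8c were well above background in 1 of 26 channels each and were not tested. Cox4i2, the lung isoform of the complex IV subunit whose common form is Cox4i1, reached that level in 7 channels and Cox6a2, the muscle form of Cox6a1, in 22. The isoforms Cox6b2 and Cox7a1 were well above background in every channel, as were the common forms Cox4i1, Cox6a1, Cox7a2 and Cox8a.

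Some facts about the arrays touch every result. The Y-linked gene Ddx3y read 7.77 to 8.92 in the Treg channel of 9 arrays and 5.81 to 6.41 in that of the other 4 (arrays 2 and 3 of IL2, arrays 1 and 3 of IL6), against 5.46 to 6.58 in the T-effector channel of all 13. The Treg samples thus differ from one another, and mostly from their T-effector partners, in a sex-linked signal, and all 4 low Treg samples lie in conditions without TGFb. Without these arrays IL2 and IL6 keep 1 array each, both on slide A, which holds no array with TGFb. A TGFb effect in such a fit cannot be told apart from slide. With all 13 arrays the overlap is partial. Slides A and C hold only arrays without TGFb, slide B only arrays with it, and slides D and E hold both. The main fits have no slide term, so part of a TGFb effect in them cannot be told apart from slide either. Slide E, which holds 4 arrays, had a spatial trend that took 33.0% to 55.2% of the variance of the log ratio, against 1.5% to 18.4% on the other slides. Loess normalization sets each array's log ratio to 0 for genes of the same brightness, so a Treg to T-effector ratio here is relative to equally bright genes. With each array centred on its median instead, the 79 members had a median ratio of -1.05 in IL2 and -1.22 in IL6, against -0.30 and -0.32 for all genes.

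Foxp3, the lineage factor of regulatory T cells, had Treg to T-effector ratios of 2.39 in IL2, 1.95 in TGFb, 2.16 in TGFb with IL6 and 2.12 in IL6 (log2). The ratio fell with TGFb for 2 of the 5 Treg markers: that of Ikzf2 was 3.23 in IL2, 3.12 in IL6 and 0.81 in TGFb (TGFb effect on the ratio -2.56, adjusted p = 2.87e-05) and that of Ctla4 1.49, 1.36 and 0.62 (-0.87, adjusted p = 0.00188). The median ratio of the 5 Treg markers was 2.39 in IL2, 1.09 in TGFb, 0.70 in TGFb with IL6 and 2.12 in IL6. Ighm, a B cell gene, had ratios of 2.2, 2.21 and 1.48 in the last 3. The summed linear signal of 6 B cell markers, of which Cd79a and Cd22 were detected in few channels, ranged over 8914 to 9912 in Treg samples of TGFb, against 4810 to 6000 in IL2, 4709 to 5226 in TGFb with IL6 and 3417 to 4307 in IL6. In T-effector samples it ranged over 5020 to 5419 in IL2, 2409 to 3209 in TGFb, 1298 to 2485 in TGFb with IL6 and 1755 to 1967 in IL6. Of the 6, Ighm rose with TGFb in Treg samples (0.90) while 3 fell, and the median difference was -0.42. The sum of 6 CD8 and NK markers, with Ncr1 and Klrb1c detected in few channels, was 1500 to 3459 in Treg samples of IL2 and 1573 to 3993 in IL6, against 3304 to 4575 in TGFb and 4571 to 5556 in TGFb with IL6. Myeloid markers summed to between 201 and 522.3 in all samples. The part of other cells in the results below was not tested. In bulk samples fewer cells of a type and less RNA per cell cannot be told apart.

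Differences below are on the log2 scale with their standard error, from limma fits over all 19900 genes, and a gene is said to have changed where its Benjamini-Hochberg adjusted p was under 0.05. Within a sample type, the TGFb effect is the mean difference between the conditions with and without TGFb, averaged over IL6, and the IL6 effect is that between the conditions with and without IL6, averaged over TGFb. With both directions counted together, the share of members that changed was below that of all genes in most comparisons. Shares by direction are given with each cytokine effect below, and some lay above that of all genes. In Treg samples 10 of 79 members (12.7%) changed with TGFb, against 16.5% of all genes, and 7 (8.86%) with IL6, against 6.09%. In T-effector samples 4 members (5.06%) changed with TGFb, against 16.8%, and 2 (2.53%) with IL6, against 5.76%. The share with IL6 in Treg samples was the only one of these above that of all genes, and it depended on the arrays used. It was 5.06% (4 members) without array 1 or 2 of TGFb, array 2 or 4 of TGFb with IL6, or array 1 of IL6, against 4.67% to 5.49% of all genes. Only 1 member (1.27%) passed without slide E, without slide B or without the 4 arrays of low Ddx3y, against 3.93%, 3.74% and 4.76% of all genes.

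**Figure D1:**
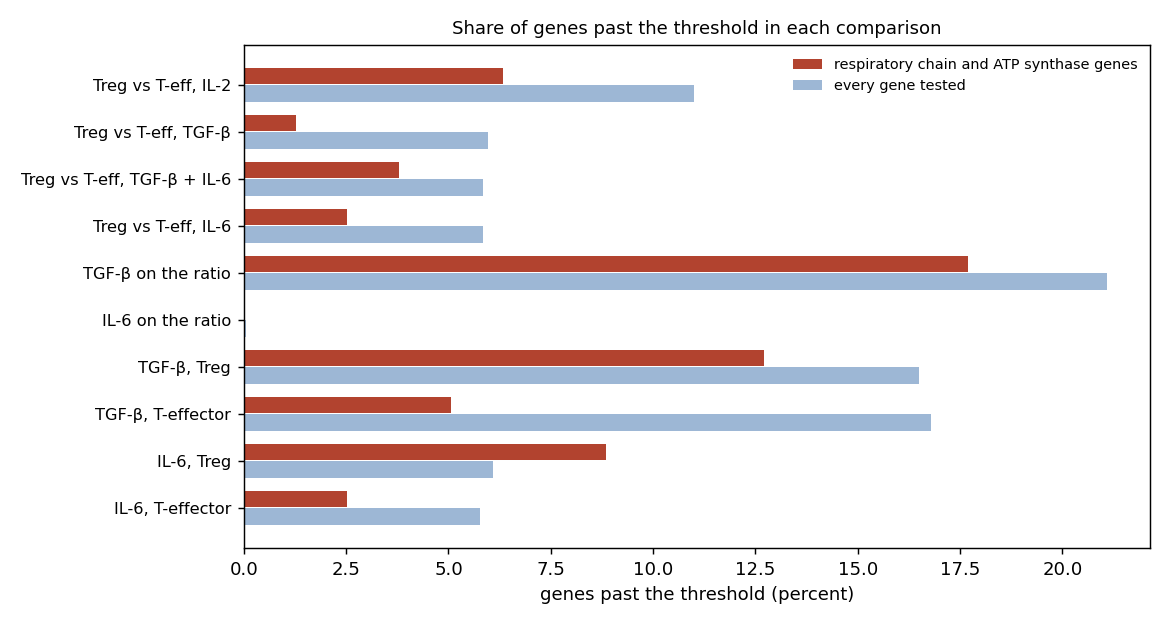
Percent of genes past an adjusted p of 0.05 (horizontal axis) in each comparison, for the 79 respiratory chain and ATP synthase genes (dark bars) and for all 19900 genes tested (light bars). The member bar is longer than the bar of all genes only for IL6 in Treg samples (8.86% against 6.09%), which was 1.27% against 3.93% without slide E.

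The promoters of 4 members are shown because these genes carried the cytokine effects described next and had an entry in the RefSeq table (GRCm38.p6). Each runs from 250 bases before to 50 bases after the gene's start, read 5′ to 3′ on the gene's strand. The capitals mark letters found by a search of both strands: CCAAT (bound by NF-Y), CCGGAAG (an ETS family site, of the kind bound by GABP), the core of the NRF1 site (GCGC, any 2 bases, GCGC), AAGATGGC (YY1), CACGTG (the E-box) and TTCNNNGAA (STAT factors). Motifs may overlap. Ndufb11 and Ndufb7 encode membrane subunits of complex I, Uqcr (now Uqcr11) a small subunit of complex III and Cox6b1 a subunit of complex IV. Uqcrq is named only.
Ndufb11, chrX:20617570-20617869, minus strand: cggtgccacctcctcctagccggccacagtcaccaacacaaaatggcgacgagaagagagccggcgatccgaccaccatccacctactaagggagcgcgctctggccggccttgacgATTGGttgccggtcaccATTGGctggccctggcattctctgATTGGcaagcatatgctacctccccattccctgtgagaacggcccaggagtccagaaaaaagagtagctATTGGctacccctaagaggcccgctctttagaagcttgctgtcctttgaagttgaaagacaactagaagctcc
Ndufb7, chr8:83566508-83566807, plus strand: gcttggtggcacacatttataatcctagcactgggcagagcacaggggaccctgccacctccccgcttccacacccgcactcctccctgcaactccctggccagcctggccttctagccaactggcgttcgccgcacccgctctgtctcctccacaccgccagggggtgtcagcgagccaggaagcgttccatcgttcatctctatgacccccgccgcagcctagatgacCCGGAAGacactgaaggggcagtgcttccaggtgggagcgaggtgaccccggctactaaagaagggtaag
Uqcr11, chr10:80406772-80407071, minus strand: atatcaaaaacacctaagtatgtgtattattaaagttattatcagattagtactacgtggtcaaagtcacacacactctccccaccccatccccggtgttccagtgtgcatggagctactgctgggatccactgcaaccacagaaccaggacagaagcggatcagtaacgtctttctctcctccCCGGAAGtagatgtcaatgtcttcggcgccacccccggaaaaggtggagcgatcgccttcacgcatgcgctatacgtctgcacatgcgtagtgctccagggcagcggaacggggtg
Cox6b1, chr7:30626065-30626364, minus strand: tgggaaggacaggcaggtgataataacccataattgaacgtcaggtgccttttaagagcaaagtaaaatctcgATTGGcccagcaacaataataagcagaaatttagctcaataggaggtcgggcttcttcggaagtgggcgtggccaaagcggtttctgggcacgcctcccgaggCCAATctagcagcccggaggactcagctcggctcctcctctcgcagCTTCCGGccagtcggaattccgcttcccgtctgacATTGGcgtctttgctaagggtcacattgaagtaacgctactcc

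The Ndufb11 promoter holds CCAAT 4 times, at -133, -116, -92 and -23 from the start. Those of Uqcr11 and Ndufb7 each hold 1 CCGGAAG, at -66 and -20, and that of Cox6b1 holds CCGGAAG at -28 and CCAAT at -177, -74 and 7. Among the 66 tested members with an entry, 24.2% held CCGGAAG, against 9.12% of all 27025 promoters of the same length. The NRF1 core was in 27.3% against 6.43%, AAGATGGC in 13.6% against 2.88%, and CCAAT in 42.4% against 37.9%. CACGTG was in 9.09% against 7.24% and TTCNNNGAA in 7.58% against 8.47%. A match describes letters and not binding.

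Under IL6, 1 member rose (1.27%) and 6 fell (7.59%) in Treg samples, and 1 rose and 1 fell in T-effector samples (1.27% each). For single directions, 3.03% of all genes rose and 3.07% fell in Treg samples, and 3.21% rose and 2.55% fell in T-effector samples. The median member difference was -0.12 in Treg samples (57 of 79 below 0, against a median of -0.03 over all genes) and -0.08 in T-effector samples (55 below 0, against -0.01). Of 6 CD8 and NK markers, Klrd1 and Prf1 rose with IL6 in Treg samples (1.18 and 0.83) and Klrd1 in T-effector samples (0.92), and their part was not tested. The single member that rose was Ndufb11, and its partners in complex I went the other way or were not past the threshold.

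Ndufb11 encodes a small X-linked subunit of the membrane arm of complex I (probe at chrX:19048474-19048533, mm7, minus strand). In T-effector samples its signal was 13.68, 13.39 and 13.64 in IL2, 13.96, 13.71 and 13.70 in TGFb, 14.67, 14.58, 14.41 and 14.64 in TGFb with IL6, and 14.26, 14.24 and 14.05 in IL6. All 7 arrays with IL6 lay above all 6 without it. The difference was 0.70 ± 0.08 (1.62-fold, adjusted p = 5.25e-06). On the slides and dyes that TGFb and TGFb with IL6 share, it was 0.70, 0.88 and 0.71, and 0.56 between IL6 and IL2 on slide A. Ddx3y was low in the T-effector samples throughout, and without the 4 arrays whose Treg samples were low in it the difference was 0.68 (adjusted p = 0.00443).

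In Treg samples Ndufb11 read 13.90, 13.86 and 13.83 in IL2, 13.95, 14.00 and 13.99 in TGFb, 14.47, 14.69, 14.46 and 14.72 in TGFb with IL6, and 14.21, 13.99 and 13.84 in IL6. The 4 arrays with both cytokines stood above all others, while the IL6 arrays overlapped those of TGFb and of IL2. The IL6 effect was 0.38 ± 0.08 (adjusted p = 0.0042), and it lost its call without slide E (0.38, adjusted p = 0.0795), without slide B (0.34, adjusted p = 0.0645) and without the 4 arrays of low Ddx3y (0.34, adjusted p = 0.131). Ndufb11 was also the member with the smallest p for the IL6 effect on the Treg to T-effector ratio, -0.31 ± 0.09, which was not past the threshold (adjusted p = 0.506). No member passed in that comparison, in which limma called 0.0503% of all genes, and 4 members had an unadjusted p under 0.05.

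Complex III had the lowest median IL6 effect of the 5 complexes in both sample types, -0.29 in Treg and -0.15 in T-effector samples. The 2 members that changed were Uqcr and Uqcrq, both small subunits of the complex outside its redox core. Uqcr in Treg samples read 12.59, 12.54 and 12.81 in IL2, 12.94, 13.04 and 12.59 in TGFb, 12.42, 12.47, 12.40 and 12.16 in TGFb with IL6, and 12.27, 12.28 and 11.91 in IL6. Every array with IL6 was below every array without it, a difference of -0.51 ± 0.09 (1.42-fold, adjusted p = 0.000718). Without slide E the value was -0.45 (adjusted p = 0.0627), and without the 4 arrays of low Ddx3y -0.39 (adjusted p = 0.047). Within shared slides it was -0.53, -0.56 and -0.19 under TGFb and -0.32 without TGFb.

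Uqcrq fell in both sample types, by 0.49 in Treg (adjusted p = 0.00813) and 0.40 in T-effector samples (adjusted p = 0.0375). In Treg samples it read 14.09, 14.12 and 14.38 in IL2, 14.45, 14.75 and 14.18 in TGFb, 14.01, 14.05, 13.66 and 13.84 in TGFb with IL6, and 13.94, 13.71 and 13.77 in IL6. The arrays with and without IL6 did not overlap in Treg samples. In T-effector samples they did: 14.37, 14.30 and 14.46 in IL2 and 14.20, 14.75 and 14.49 in TGFb, against 13.93, 13.99, 13.88 and 14.12 in TGFb with IL6 and 13.74, 14.26 and 14.20 in IL6. A dimmer probe of Uqcrq gave 0.10 and 0.11 in the 2 sample types, so the probes disagree. The T-effector call was lost in 11 of the 13 fits that left out 1 array, and the Treg call without slide B (-0.45, adjusted p = 0.065) or the low Ddx3y arrays (-0.46, adjusted p = 0.0853).

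The Rieske iron-sulfur protein Uqcrfs1, the redox subunit of complex III among the members, differed by 0.04 in Treg and 0.07 in T-effector samples, and neither value passed. The core proteins Uqcrc1 and Uqcrc2, which carry no redox centre, differed by -0.29 and 0.07 in Treg samples and did not pass.

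Of the other complex I subunits, Ndufb7 and Ndufb8, both of the membrane arm, fell with IL6 in Treg samples. Ndufb7 read 12.91, 12.60 and 12.93 in IL2, 13.21, 13.22 and 12.87 in TGFb, 12.71, 12.83, 12.72 and 12.52 in TGFb with IL6, and 12.57, 12.72 and 12.08 in IL6. The arrays with IL6 were the lower ones, apart from an overlap with array 2 of IL2, and the difference was -0.40 ± 0.09 (adjusted p = 0.00822). It was -0.26 without slide E (adjusted p = 0.278), a move of over 1.5 times, and -0.28 without the low Ddx3y arrays (adjusted p = 0.201). Ndufb8 fell by 0.35 (adjusted p = 0.0338), a call lost in 9 of the 13 fits that left out 1 array. The iron-sulfur core subunit Ndufs1 differed by 0.02 in Treg and the flavin subunit Ndufv1 by 0.15, neither past the threshold.

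In complex II, Sdhd, a membrane anchor of succinate dehydrogenase, fell with IL6 in Treg samples by 0.32 (adjusted p = 0.0413). Sdha, Sdhb and Sdhc differed by 0.15, -0.15 and -0.13 there and did not pass. In complex V, Atp5g1, 1 of 3 genes for the same membrane ring subunit c, fell by 0.44 (adjusted p = 0.0486), whereas Atp5g2 and Atp5g3 differed by -0.11 and -0.19. Both calls were lost in 10 of the 13 fits that left out 1 array. No complex IV member passed under IL6. The smallest p in Treg samples was that of Cox6a1 (-0.40, adjusted p = 0.0592), and in T-effector samples that of Cox5a (-0.28, adjusted p = 0.329).

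**Figure D2:**
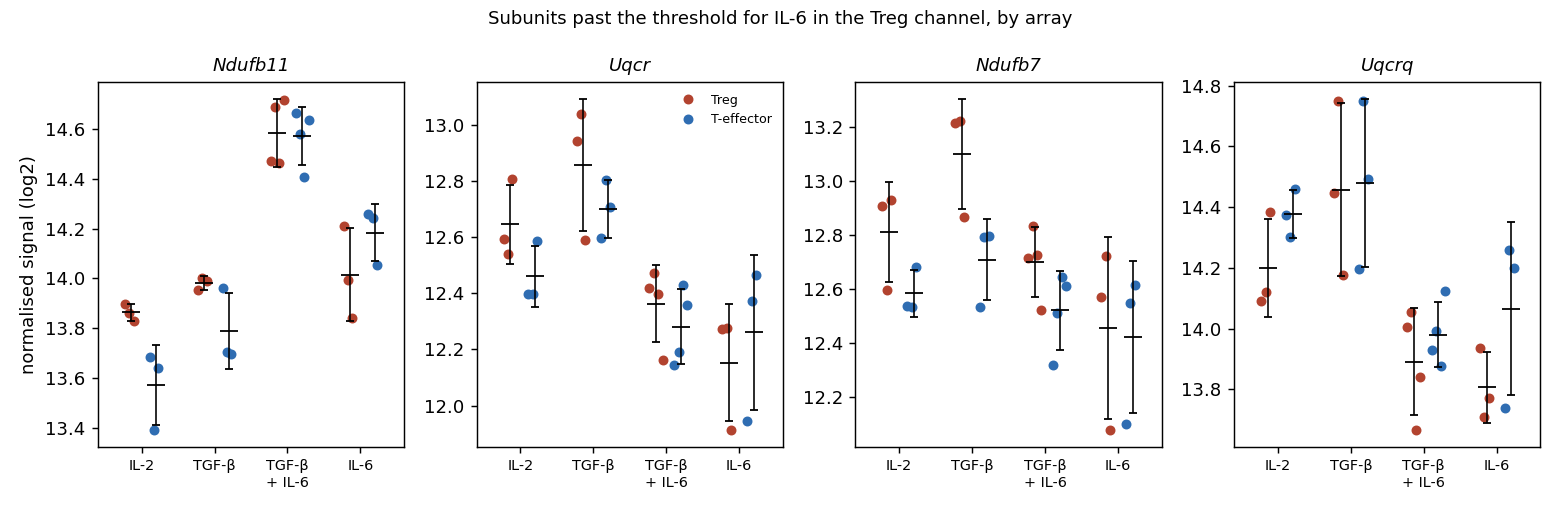
Normalized log2 signal (vertical axis) of Ndufb11, Uqcr, Uqcrq and Ndufb7 in every array, by condition and sample type; points are arrays and bars the condition mean ± SD. Ndufb11 is higher in the conditions with IL6, most of all with TGFb and IL6 (14.41 to 14.72 over both sample types), and the Treg signals of Uqcr and Uqcrq are lower there.

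TGFb effects were counted in the same way. In Treg samples 9 members rose (11.4%) and 1 fell (1.27%), against 7.49% of all genes that rose and 9.05% that fell. The median member difference was 0.09, with 56 of 79 above 0, against -0.02 over all genes. In T-effector samples 2 rose and 2 fell (2.53% each, against 8.10% and 8.74% of all genes), with a median of -0.05 against 0.01. Beside these effects, 2 of 6 CD8 and NK markers rose and none fell with TGFb in Treg samples, and 1 rose and 1 fell in T-effector samples. Of 10 cell cycle genes 1 rose and 1 fell in Treg samples, and none changed in T-effector samples. Their part was not tested.

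In complex I, 6 of 35 members rose with TGFb in Treg samples. Ndufv1, which binds the flavin that takes electrons from NADH, rose by 0.61 (adjusted p = 0.0492) and Ndufb2, a membrane arm subunit, by 0.60 (adjusted p = 0.0116). Without slide E the values were 0.60 and 0.43 (adjusted p = 0.0705 and 0.0882), and without the low Ddx3y arrays 0.49 and 0.46 (adjusted p = 0.356 and 0.196). Both calls were thus lost with fewer arrays, and that of Ndufv1 also in 9 of the 13 fits that left out 1 array. Treg signals of Ndufv1 were 11.53, 10.95 and 10.55 in IL2, 12.08, 12.18 and 11.55 in TGFb, 11.89, 12.01, 11.63 and 11.82 in TGFb with IL6, and 11.77, 11.61 and 11.06 in IL6. The groups overlapped, and the lowest 3 arrays were all of low Ddx3y. Smaller differences, between 0.28 and 0.39, passed in 3 complex I members, one of them Ndufb11.

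Complex II had the highest median TGFb effect in Treg samples, 0.26. Complex III followed with 0.20, complex I with 0.09 and complex V with 0.08, while that of complex IV was -0.08. Sdha, the flavoprotein of succinate dehydrogenase, rose by 0.47 (adjusted p = 0.00845). Its Treg signals were 9.16, 9.03 and 8.97 in IL2 and 9.10, 9.09 and 8.99 in IL6, against 9.26, 9.26 and 9.63 in TGFb and 9.67, 9.57, 9.93 and 9.46 in TGFb with IL6. The arrays with and without TGFb did not overlap, yet without slide E the value was 0.46 (adjusted p = 0.0617). Without the low Ddx3y arrays it was 0.29, a move of over 1.5 times, in a fit that cannot tell TGFb from slide. Sdhb and Sdhc differed by 0.25 and 0.27 and Sdhd by -0.07, none past the threshold.

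In complex III no member passed with TGFb, and the smallest p in Treg samples was that of Uqcr (0.19, adjusted p = 0.151). Cytochrome c1 (Cyc1), a complex III subunit whose name the rule does not take, is given with the related pathways. In complex IV, Cox4i1, a regulatory subunit, rose in Treg samples by 0.81 ± 0.24 (1.75-fold, adjusted p = 0.0226), the largest change of any member within a sample type. Its Treg signals of 12.51 and 12.07 on arrays 2 and 3 of IL2 and 12.21 on array 3 of IL6, all of low Ddx3y, were the lowest 3, and the other 10 arrays read 13.19 to 13.95. Without the 4 low Ddx3y arrays the value was 0.45 (adjusted p = 0.482), a move of over 1.5 times, and the call was also lost without slide E (0.64, adjusted p = 0.0987), array 3 of IL2 (0.70, adjusted p = 0.0763), array 3 of TGFb (0.80, adjusted p = 0.0629) or array 3 of IL6 (0.72, adjusted p = 0.0762). Cox6c fell by 0.51 (adjusted p = 0.0219), with overlapping arrays, and lost its call without slide E (-0.41, adjusted p = 0.192).

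In complex V, Atp5g1 rose by 0.48 with TGFb in Treg samples (adjusted p = 0.0129), opposite to its IL6 effect. It read 12.25, 12.43 and 11.86 in TGFb, 11.72, 11.84, 11.62 and 11.68 in TGFb with IL6, 11.66, 11.34 and 11.92 in IL2, and 11.35, 11.49 and 10.93 in IL6. The highest 2 arrays were of TGFb without IL6 and the lowest was of IL6 without TGFb, with the remaining arrays overlapping between. Without slide E the value was 0.38 (adjusted p = 0.118) and without the low Ddx3y arrays 0.46 (adjusted p = 0.116), so that the call was lost with fewer arrays. For Atp5a1 and Atp5b, which form the head of ATP synthase, the tested probes gave -0.20 and -0.23, neither past the threshold. Other probes gave 0.43 and 0.35, so no direction is given.

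**Figure D3:**
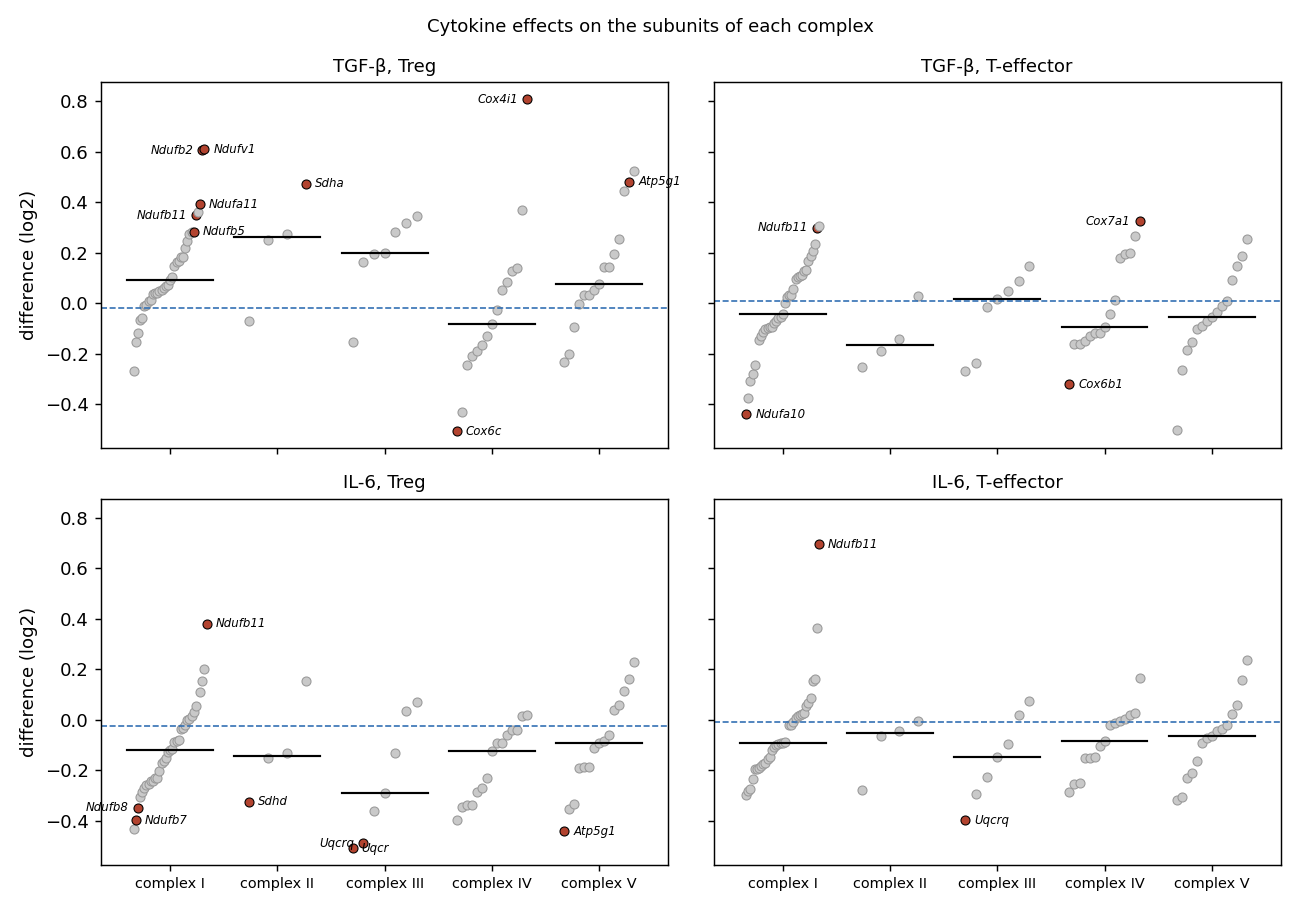
Difference in log2 signal with TGFb (top) and IL6 (bottom) in Treg (left) and T-effector samples (right) for the subunits, grouped by complex; named dark points passed an adjusted p of 0.05, black lines are medians of a complex and dashed lines the median of all genes. Most points of complexes I, II, III and V lie above the dashed line for TGFb in Treg samples, and most points of every complex lie below it for IL6.

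In T-effector samples Ndufa10, an accessory subunit of the membrane arm of complex I, fell with TGFb. It read 10.33, 10.13 and 10.34 in IL2 and 9.67, 10.21 and 9.93 in IL6, against 9.62, 10.04 and 9.69 in TGFb and 9.35, 9.68, 9.47 and 9.63 in TGFb with IL6. Array 2 of TGFb and array 1 of IL6 overlapped the other side, and the difference was -0.44 ± 0.11 (adjusted p = 0.00755). Without slide E it was -0.54 (adjusted p = 0.0582).

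Cox6b1, which lies where complex IV pairs into a dimer, fell by 0.32 in T-effector samples (adjusted p = 0.00883). Its signals were 9.24, 9.64 and 9.53 in IL2 and 9.68, 9.38 and 9.70 in IL6, against 9.25, 9.39 and 9.14 in TGFb and 9.08, 9.15, 9.14 and 9.18 in TGFb with IL6. The arrays of TGFb overlapped those without it. Without slide E the value was -0.23 (adjusted p = 0.278) and without the low Ddx3y arrays -0.12 (adjusted p = 0.465), a move of over 1.5 times. Cox7a1, the heart and muscle isoform of Cox7a2, rose by 0.33 (adjusted p = 0.0233) and Ndufb11 by 0.30 (adjusted p = 0.0129), and both lost their call without slide E (0.30 and 0.22, adjusted p = 0.199 and 0.277) and without the low Ddx3y arrays (0.29 and 0.24, adjusted p = 0.174 and 0.191).

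No member passed the test of an interaction of TGFb and IL6 by limma in either sample type, where 0.930% of all genes passed in Treg and 1.01% in T-effector samples. At an unadjusted p under 0.05 there were 2 members in Treg and 1 in T-effector samples. The member with the smallest p was Ndufb11 in Treg samples (0.43, adjusted p = 0.42) and Sdhd in T-effector samples (-0.64, adjusted p = 0.154).

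Treg and T-effector samples of 1 condition differed in few members. In IL2, 2 members were higher and 3 lower in Treg samples (6.33%, against 11.0% of all genes, 7.41% higher and 3.56% lower). In TGFb 1 was higher (1.27%, against 5.97% of all genes, 4.15% higher and 1.83% lower). In TGFb with IL6 3 were higher (3.80%, against 5.84%, 3.50% higher and 2.34% lower), and in IL6 2 were lower (2.53%, against 5.84%, 3.76% higher and 2.08% lower). These directions are relative to equally bright genes: under median centring, 72 members passed as lower in Treg samples in IL2 and 75 in IL6, and none as higher. The median ratio of all genes was also below 0 in both conditions under that setting, as given above. The share of all genes that passed there is not given, so these counts alone do not set the members apart.

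In IL2, the lower members in Treg samples included Ndufv1 (-0.92, adjusted p = 0.0401) and Sdha (-0.64, adjusted p = 0.0173). Ndufa4 was higher by 0.37 (adjusted p = 0.0194) and Cox7a1 by 0.33 (adjusted p = 0.0429). Sdha had ratios of -0.48, -0.48 and -0.82 on the 3 arrays and Ndufa4 of 0.31, 0.43 and 0.35, each of 1 sign. All 5 calls were lost without the 4 low Ddx3y arrays, which leaves 1 array in IL2. The value was then -0.92 for Ndufv1, while that of Sdha was -0.25, of Ndufa4 0.22 and of Cox7a1 0.19, each a move of over 1.5 times. With the array number as a replicate block only Ndufv1 of the 5 passed.

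The members higher in Treg samples under TGFb with IL6 included Ndufa10 (0.50, adjusted p = 0.0123) and Ndufa9 (0.29, adjusted p = 0.0499). All 3 calls in that condition were lost without slide B, which leaves 2 of its arrays (adjusted p = 0.107 for Ndufa10 and 0.257 for Ndufa9), and Ndufa10 also without array 1 (0.44, adjusted p = 0.106) or array 3 (0.49, adjusted p = 0.0879) of the condition. Under TGFb alone Cox6b1 was higher by 0.33 (adjusted p = 0.0381), and Ndufa9 was the complex I member with the smallest p (0.32, adjusted p = 0.0602). Under IL6 Ndufs6, a complex I subunit that binds zinc, was lower (-0.51, adjusted p = 0.0441), as was Sdhd (-0.43, adjusted p = 0.0439). The ratios of Ndufs6 were -0.33, -0.04 and -1.0 on the 3 IL6 arrays, and without slide E, which leaves array 2, the value was -0.14 (adjusted p = 0.735). Without array 3 of IL6 it was -0.28 (adjusted p = 0.434). The calls of Ndufs6, Sdhd and Ndufa9 were lost in 11, and that of Cox6b1 in 9, of the 13 fits that left out 1 array.

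The TGFb effect on the Treg to T-effector ratio tests whether TGFb acts differently in the 2 sample types. By this test 11 members were higher (13.9%) and 3 lower (3.8%) with TGFb, 17.7% in all. Of all genes 21.1% passed, 8.77% higher and 12.3% lower. The median member difference was 0.12, with 54 of 79 above 0, against -0.02 over all genes. The count and its side of the background changed with the processing. It was 8 with the array number as a replicate block (10.1%, against 17.4% of all genes) and 9 without slide E (11.4% against 23.2%), and it ranged from 5 to 16 with 1 array left out. It was 22 with slide as a block (27.8% against 24.9%), 26 with Agilent's processed signals (32.9% against 36.1%), 35 with the spatial trend removed (44.3% against 37.2%) and 74 under median centring (93.7% against 58.6%). Beside this effect, 3 of 6 CD8 and NK markers (Cd8a, Klrd1 and Prf1) were higher with TGFb in the ratio, and of 10 cell cycle genes 5 were higher and 1 lower. Their part was not tested.

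Ndufa10 had ratios of -0.04, -0.60 and -0.53 in IL2 and 0.09, -0.19 and 0.04 in IL6, against 0.58, 0.26 and 0.47 in TGFb and 0.76, 0.49, 0.45 and 0.31 in TGFb with IL6. The arrays with and without TGFb did not overlap, and the difference was 0.66 ± 0.11 (adjusted p = 0.00263). Within slides D and E it was 1.06 and 0.67.

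Cox6b1 had ratios of -0.01, -0.24 and -0.27 in IL2 and 0.02, -0.16 and -0.41 in IL6, against 0.37, 0.32 and 0.40 in TGFb and 0.21, 0.33, 0.24 and 0.05 in TGFb with IL6. Again the arrays did not overlap, with a difference of 0.45 ± 0.08 (adjusted p = 0.00394). Ndufa10, Cox6b1 and Ndufv1 (0.98, adjusted p = 0.0162) kept this call in each alternative run, with values between 0.60 and 1.64, 0.38 and 1.37, and 0.67 and 2.06. The highest of each came from median centring, under which 74 of 79 members passed.

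Ndufa4 moved the other way. Its ratio was 0.31, 0.43 and 0.35 in IL2 and 0.12, 0.13 and 0.31 in IL6, against 0.04, -0.09 and -0.29 in TGFb and -0.13, -0.20, -0.33 and -0.24 in TGFb with IL6. All arrays with TGFb lay below all those without it, a difference of -0.45 ± 0.08 (adjusted p = 0.00403). Without the low Ddx3y arrays the difference was -0.31 (adjusted p = 0.0615), and under median centring it turned to 0.72. Its direction is thus relative to equally bright genes.

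In complex II Sdha was higher with TGFb in the ratio by 0.44 (adjusted p = 0.04), with Sdhb at 0.50 (adjusted p = 0.0763) and Sdhc at 0.41 (adjusted p = 0.0665). In complex IV Cox4i1 was higher by 0.90 (adjusted p = 0.0371). Its ratio was 1.93 on array 1 of TGFb and 1.08 on array 1 of TGFb with IL6, both on slide E, and -0.23 to 0.17 on the other 5 arrays with TGFb. In complex V Atp5e was higher by 0.75 (adjusted p = 0.0478), Atp5f1 by 0.34 (adjusted p = 0.0416) and Atp5g3 lower, at -0.35 (adjusted p = 0.041). Atp5e, Atp5f1 and Atp5g3 were lost without slide E (0.40, 0.25 and -0.21, adjusted p = 0.185, 0.193 and 0.349), and no complex III member passed. Without the low Ddx3y arrays the values were 0.13 for Sdha (adjusted p = 0.619), 0.94 for Cox4i1 (adjusted p = 0.167), 0.65 for Atp5e (adjusted p = 0.294), 0.33 for Atp5f1 (adjusted p = 0.213) and -0.19 for Atp5g3 (adjusted p = 0.414). Each of these 5 calls was lost in 9 to 11 of the 13 fits that left out 1 array.

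**Figure D4:**
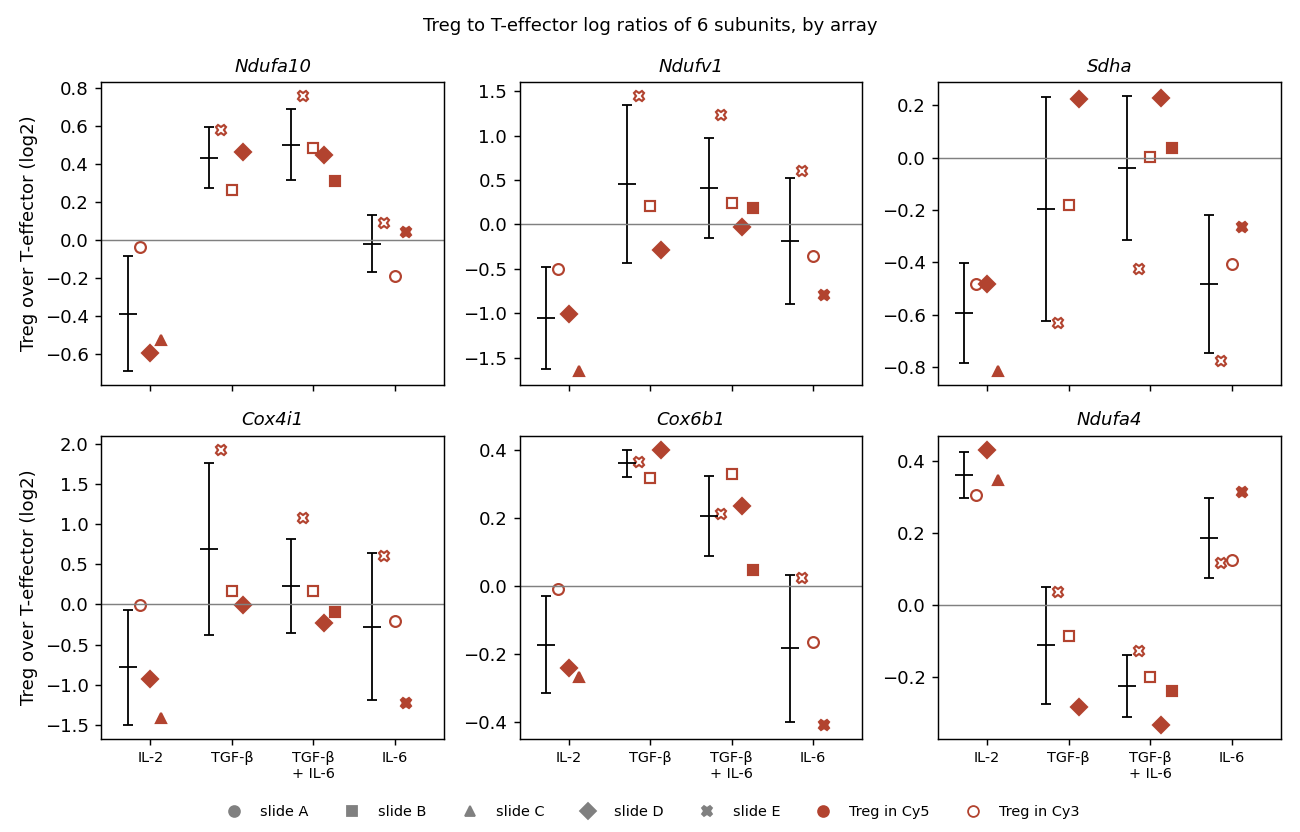
Treg to T-effector log2 ratio (vertical axis) on each array, by condition, for 6 members with a TGFb effect on the ratio; point shapes give the slide, filled points have Treg in Cy5, and bars are the condition mean ± SD. The line at 0 is the level of equally bright genes. Ratios of Ndufa10 and Cox6b1 lie higher in the conditions with TGFb (for Ndufa10, 0.26 to 0.76) and those of Ndufa4 lower (-0.33 to 0.04).

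Probes of the same gene did not always give the same result. The 21 members with other tested probes (26 probes) gave 26 pairs of a tested and another probe. For the TGFb effect on the ratio, 13 of the 26 pairs had opposite signs, with a median gap of 0.28. Signs were opposite in 10 pairs for TGFb and in 7 for IL6 in Treg samples. Gaps over 0.5 in the TGFb effect on the ratio occurred in 4 pairs. These belonged to Atp5b and Atp5a1, which form the head of ATP synthase, and to Atp5g2. Atp5b had a TGFb effect on the ratio of -0.18 by its brightest probe, which was saturated at least once, and of 0.68 and 0.60 by its other 2 probes. Atp5a1 had -0.10 by the tested probe and 0.56 by another. Atp5g2 had -0.04 and 0.52. For these 3 genes no direction of the TGFb effect on the ratio is given. Over the 8 means of condition and sample type, the tested members spanned a median of 0.48 (log2), from 0.18 for Ndufs1 to 1.09 for Cox7a2l, a factor that helps respiratory complexes associate. Only Ndufb11, Ndufb2, Ndufv1, Cox4i1 and Cox7a2l spanned more than 1.

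Genes of related pathways were counted from lists. Over all genes, 7.49% rose and 9.05% fell with TGFb in Treg samples and 8.10% and 8.74% in T-effector samples, and 3.07% fell with IL6 in Treg samples. Of 18 glycolysis genes tested, 9 fell with TGFb in Treg samples (median -0.60) and 11 in T-effector samples (median -0.54), and none rose. Tpi1, which interconverts the triose phosphates, fell by 0.92 and 1.18, and Slc16a3, a lactate exporter, by 1.29 and 1.59. The number that fell was 4 of 18 in Treg samples without slide E and 6 without the low Ddx3y arrays. Both counts are given without the share of all genes in the same fit, and the fit without the low Ddx3y arrays cannot tell TGFb from slide. Of 16 citrate cycle genes, 3 rose and 1 fell with TGFb in Treg samples, and 1 rose and 2 fell in T-effector samples. Among 18 electron carriers and assembly factors, 2 rose and 4 fell with TGFb in Treg samples, including cytochrome c1 (Cyc1, 0.46) and the copper chaperone Sco1 (-0.55). Cyc1 is a redox subunit of complex III whose name falls outside the naming rule, so it is not a member. Its TGFb effect on the ratio was 0.63 (adjusted p = 0.00721), and it was lower in Treg samples in IL2 (-0.71, adjusted p = 0.00903). Whether these calls hold with fewer arrays was not examined. With IL6, Etfb, a subunit of the electron transfer flavoprotein, fell by 0.68 in Treg and 0.61 in T-effector samples, and Cox17, a copper chaperone of complex IV, by 0.57 in Treg samples. Of 13 regulators of mitochondrial genes, 2 rose and 4 fell with TGFb in Treg samples, and 1 rose and 2 fell in T-effector samples. Of 8 genes of uncoupling and exchange, 2 fell with IL6 in Treg samples and none changed in T-effector samples. With TGFb, 1 of the 8 rose in Treg samples, and 1 rose and 2 fell in T-effector samples.

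In the authors' deposited table, which holds 1 log2 value per probe and condition, the member medians were -0.04, 0.03, 0.05 and -0.17 in IL2, TGFb, TGFb with IL6 and IL6. Its values correlated across probes with the Treg to T-effector ratios at 0.711, 0.665, 0.657 and 0.70, so it runs in the same direction, but its exact scale and centring are not known.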

How the data were processed

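The 13 two-colour arrays hold scanner intensities of each dye per spot, made with Agilent Feature Extraction 9.5.1.1 per the file headers, and log10 ratios of processed Cy5 over Cy3 deposited beside them. The authors' value table holds log2 values, 1 per probe and condition. Dyes came from the labels. Probe positions are those in the files (mm7).

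limma 3.58.1 (R 4.3.3) was used with normexp background correction (offset 50, parameters fitted without spots flagged for local background) and loess. A gene was tested, by its brightest probe, if that probe was well above background in 3 or more of the 26 channels. Ratios (Treg over T-effector) were fitted with a dye term (8 residual degrees of freedom). Within a sample type, conditions were compared in limma's separate-channel model on quantile-normalized mean signals (intraspot correlation 0.45, residual degrees of freedom 17). Tests were adjusted by Benjamini-Hochberg over 19900 genes. The number of arrays limits the precision.

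Members, lists and the genes named (up to 3 per complex and comparison past the threshold, else the smallest p, plus anchors and isoforms, of which a selection is given) were chosen with earlier results of these data known. Arrays are numbered in label order. The first 3 arrays of the 2 conditions with TGFb have slide and dye in common, and as pairs their deviations correlated between 0.54 and 0.76 (ratio), 0.40 and 0.70 (Treg) and 0.28 and 0.85 (T-effector). Array 1 of IL6 lies on the same slide as array 1 of each and correlated with them between 0.30 and 0.70. Other same-numbered arrays lie on different slides, with correlations between -0.70 and 0.66. Alternatives changed background correction, normalization, filter, probe choice, dye term and slide or replicate block, and left out arrays. The fits were also run on simulated data. For TGFb on the ratio they recovered 41.8% of added log2 changes of 0.5 and 92.5% of those of 1. Of 167 calls 12 were false. The simulated noise was independent between arrays and held no shared deviations of arrays on 1 slide. The values of 1 member are not reported here, though counts and medians include it.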

Additional observations from a re-analysis of the deposited data

Results flagged for a closer look

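In TGFb with IL6, the group of 4 arrays, 45 sets of values were searched for an array far from the others, and 5 were found; chance gives about 1 in 20. Of these, 4 concern array 1, on slide E. The median ratio of the 79 members was 0.225 there, that of complex V 0.246, the median T-effector signal of complex II 10.2, and the T-effector signal of Ndufv1 10.66. The other was the median Treg signal of complex IV on array 2, at 13.05. The part of the slide E trend in the values of array 1 was not tested.

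The TGFb effect differed between Treg and T-effector samples for 14 of 79 members (17.7%) by the test of the ratio itself, against 21.1% of all genes. Higher in Treg relative to T-effector samples with TGFb were, among others, Ndufv1 (0.98), Cox4i1 (0.90), Atp5e (0.75), Ndufa10 (0.66), Cox6b1 (0.45), Sdha (0.44), Ndufv2 (0.42), Atp5f1 (0.34), Ndufa9 (0.28) and Atp5o (0.27). Lower were Ndufa4 (-0.45), Cox6a1 (-0.37) and Atp5g3 (-0.35), and all 3 turned to higher under median centring. Of the 13 fits that left out 1 array, 8 lost the call of Ndufv2 and 8 that of Ndufa9. The call of Atp5o was lost in 10 of them and that of Cox6a1 in 11. Each of these calls was also lost without slide E and without slide B.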

How the results depend on the processing

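Of the 48 calls of members, 18 were kept whichever array was left out and 6 in every alternative run, among them Ndufb11 under IL6 in T-effector samples, and Ndufa10, Ndufv1 and Cox6b1 for TGFb on the ratio. Over 1248 combinations of a call and an alternative, 842 kept the call, 401 kept the direction without it and 5 reversed. With 1 array left out, the number of members past the threshold ranged from 0 to 6 for Treg against T-effector in IL2, 0 to 3 in TGFb, 1 to 3 in TGFb with IL6 and 0 to 3 in IL6, from 5 to 16 for TGFb on the ratio, 6 to 12 for TGFb and 4 to 8 for IL6 in Treg, and 3 to 6 and 1 to 3 in T-effector samples. Where a cause is not named below, it was not tested. The counts below are given without the share of all genes under the same alternative. That share also changed where it is given above, so these counts alone do not set the members apart from other genes.

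With the array number as a replicate block, 8 members passed for TGFb on the ratio, 1 in IL2, 0 in TGFb and 0 in IL6, and the other counts were within 1.5 times of the main ones. Same-numbered arrays on 1 slide deviated together under every measure (arrays 1 to 3 of TGFb and of TGFb with IL6, and array 1 of IL6 with array 1 of each). With slide as a block the counts were 22 for TGFb on the ratio, 19 for TGFb and 15 for IL6 in Treg, 6 for IL6 in T-effector samples, and 0 for the ratio in TGFb and 0 in IL6. With Agilent's processed signals they were 10, 11, 9 and 10 for the ratio in IL2, TGFb, TGFb with IL6 and IL6, 26 for TGFb on the ratio and 7 for IL6 in T-effector samples. With normexp fitted on all spots they were 0 in IL2 and 0 in TGFb, 8 for TGFb on the ratio and 4 for IL6 in T-effector samples. Without the dye term they were 2 in IL2, 0 in TGFb, 0 in IL6 and 7 for TGFb on the ratio. With every probe on its own they were 9 in IL2, 5 in TGFb with IL6 and 6 in IL6. With no filter 1 passed in IL6, and with no background subtraction 0 in TGFb.

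The next 4 alternatives were chosen after seeing the data. With the spatial trend removed, 20, 16, 12 and 22 members passed for the ratio in the 4 conditions in that order, 35 for TGFb on the ratio, 18 for TGFb in Treg and 6 for IL6 in T-effector samples. Without slide E, 0 passed for the ratio in TGFb and 0 in IL6, 9 for TGFb on the ratio, 3 and 1 for TGFb and IL6 in Treg, and 0 and 1 in T-effector samples. Without slide B, 1 passed in IL2, 0 in each other condition, 1 for IL6 in Treg, and 8 for TGFb and 1 for IL6 in T-effector samples. Without the 4 arrays of low Ddx3y, 2 passed in IL2, 3 in TGFb and 5 in TGFb with IL6, 6 and 1 for TGFb and IL6 in Treg, and 1 and 1 in T-effector samples. These fits have fewer arrays. In the fit without the low Ddx3y arrays, all arrays without TGFb lie on slide A and none with TGFb does.

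Median centring in place of loess, which sets no level by brightness, gave 72 members past the threshold in IL2 and 75 in IL6, all lower in Treg samples, 0 in TGFb, 0 in TGFb with IL6, and 74 for TGFb on the ratio. All reversals came from it. For TGFb on the ratio they were Atp5a1 (1.15), Atp5b (1.1), Atp5g2 (1.09), Atp5g3 (0.90), Cox5a (1.09), Cox6a1 (0.90), Cox6b2 (0.62), Cox8a (1.21), Ndufa4 (0.72) and Uqcrfs1 (0.89). In IL2 they were Atp5g3 (-1.05), Cox5a (-1.03), Cox6a1 (-0.95), Cox6b2 (-0.53), Cox7a1 (-0.10), Cox8a (-0.82), Ndufa4 (-0.71) and Uqcrfs1 (-0.85). In IL6 they were Atp5a1 (-1.15), Atp5b (-1.07), Atp5g2 (-1.13), Atp5g3 (-1.20), Cox8a (-1.21), Ndufa4 (-1.03), Ndufs1 (-0.99) and Uqcrfs1 (-1.09).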
